A study of Homo sapiens with 9 samples.

Results

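Lysosome and autophagy genes were followed in Huh7 cells given the BET bromodomain inhibitor JQ1 or the MAT2A inhibitor FIDAS-5. The 54 genes were taken by symbol from a list of lysosomal enzymes, lysosomal membrane proteins, proton pump subunits, autophagy proteins and their transcription factors, out of 27800 symbols in the deposited table. Of these, 53 had at least 1 TPM (a level per transcript length, scaled to a fixed total per library) in at least 3 of the 9 libraries and were tested among 13573 genes. The transcription factor gene MITF did not reach that level.

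Huh7 is an established human hepatocellular carcinoma line. It was grown in DMEM with serum, and total RNA was sequenced. The 3 groups were cells given 0.5 uM JQ1 for 48 h, cells given 5 uM FIDAS-5 for 48 h, and vehicle-treated cells, with 3 libraries each. All libraries come from the same unmodified line, and the labels do not say whether replicates were separate cultures; the p-values therefore rest on the spread among libraries, technical or not.

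Lysosomes break down proteins, glycans and lipids in an acid lumen that a proton pump maintains, and autophagy delivers cytoplasm to them in vesicles coated with LC3 and GABARAP proteins. The transcription factors TFEB, TFE3 and MITF bind E-box motifs of lysosomal promoters, and mTORC1, a kinase complex that senses nutrients at the lysosome, holds them in the cytoplasm. JQ1 displaces BET bromodomain proteins from chromatin. MAT2A makes S-adenosylmethionine, a methyl donor that mTORC1 senses through the protein encoded by BMT2.

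Promoters are shown for the members that carry the E-box in its extended form, GTCACGTG, the core of the element TFEB binds. RefSeq gave a promoter (250 bases before to 50 bases after the start site, GRCh38.p14) for 42 of the 54 members, and 6 of these 42 (14.3%) held GTCACGTG on either strand. The same letters stood in 2.53% of all 27305 promoters of the table and in 3.46% of the 14708 promoters of protein-coding genes with a row in the TPM table. The shorter E-box CACGTG, which every GTCACGTG contains, was in 7 of 42 members (16.7%), against 7.43% of all promoters and 8.93% of protein-coding ones; the member beyond the 6 was NEU1. The related M-box TCATGTG was in 5 members (11.9%), namely CTSA, TPP1, PPT1, GPNMB and GRN, against 2.99% and 2.24%. A match of letters is a description of the sequence, not a measured binding site. The 6 promoters lie at chr20:45891085-45891384 on the plus strand (CTSA), chr11:1763878-1764177 on the minus strand (CTSD), chr17:80101331-80101630 on the plus strand (GAA), chr13:113296989-113297288 on the plus strand (LAMP1), chr19:7522374-7522673 on the plus strand (MCOLN1) and chr16:67481108-67481407 on the minus strand (ATP6V0D1). They are written 5′ to 3′ on the gene's strand, with matches to TCACGTG, GTCACGTG or the M-box on either strand in capitals and overlapping matches run together.
CTSA: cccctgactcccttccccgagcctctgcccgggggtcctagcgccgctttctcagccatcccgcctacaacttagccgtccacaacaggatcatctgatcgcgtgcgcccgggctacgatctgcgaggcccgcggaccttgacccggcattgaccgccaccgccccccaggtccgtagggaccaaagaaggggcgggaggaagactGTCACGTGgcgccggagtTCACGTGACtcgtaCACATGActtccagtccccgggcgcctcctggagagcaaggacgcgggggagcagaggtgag
CTSD: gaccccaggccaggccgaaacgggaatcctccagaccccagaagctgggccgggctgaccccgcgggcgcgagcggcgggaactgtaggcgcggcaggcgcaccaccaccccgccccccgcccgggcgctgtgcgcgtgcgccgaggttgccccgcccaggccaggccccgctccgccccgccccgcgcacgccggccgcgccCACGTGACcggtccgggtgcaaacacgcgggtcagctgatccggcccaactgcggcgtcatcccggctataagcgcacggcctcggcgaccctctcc
GAA: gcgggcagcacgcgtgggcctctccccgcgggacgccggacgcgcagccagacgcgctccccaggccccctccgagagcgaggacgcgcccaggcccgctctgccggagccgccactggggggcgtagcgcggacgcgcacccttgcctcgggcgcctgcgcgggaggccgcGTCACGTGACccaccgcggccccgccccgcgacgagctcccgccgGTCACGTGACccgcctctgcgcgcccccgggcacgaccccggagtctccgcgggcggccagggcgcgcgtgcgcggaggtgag
LAMP1: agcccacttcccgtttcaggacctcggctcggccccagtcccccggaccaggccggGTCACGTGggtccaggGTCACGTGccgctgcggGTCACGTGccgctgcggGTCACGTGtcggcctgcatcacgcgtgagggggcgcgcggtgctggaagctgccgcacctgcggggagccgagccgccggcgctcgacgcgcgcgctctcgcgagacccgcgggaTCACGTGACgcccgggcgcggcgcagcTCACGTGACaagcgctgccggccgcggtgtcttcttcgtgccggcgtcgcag
MCOLN1: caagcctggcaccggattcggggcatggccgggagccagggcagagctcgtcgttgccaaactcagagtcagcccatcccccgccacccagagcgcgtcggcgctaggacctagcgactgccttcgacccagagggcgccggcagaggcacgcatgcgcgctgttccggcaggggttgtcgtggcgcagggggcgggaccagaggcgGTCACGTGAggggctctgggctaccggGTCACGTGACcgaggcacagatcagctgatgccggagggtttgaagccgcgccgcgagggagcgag
ATP6V0D1: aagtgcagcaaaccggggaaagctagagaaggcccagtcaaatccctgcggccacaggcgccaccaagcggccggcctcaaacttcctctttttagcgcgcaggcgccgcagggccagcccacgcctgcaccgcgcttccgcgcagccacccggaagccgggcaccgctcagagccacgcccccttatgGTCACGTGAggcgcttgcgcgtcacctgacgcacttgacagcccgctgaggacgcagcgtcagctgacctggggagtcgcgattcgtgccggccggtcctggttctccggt
LAMP1, which encodes an abundant glycoprotein of the lysosomal membrane, held 6 copies of CACGTG, with GTCACGTG starting between 194 bases and 1 base before the start site. GAA and MCOLN1 held 2 copies of CACGTG each, and CTSD and ATP6V0D1 held 1.

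Each library listed 12229 to 13014 genes at 1 TPM or more, and protein-coding genes made up 27.5 to 33.8% of its TPM. The depth behind each value is unknown, since TPM carries no read number. Pearson correlations of log2(TPM + 1) across genes between libraries of 1 group were 0.952 to 0.975. HEXIM1, a gene known to rise under BET inhibition, had 26.8, 24.7 and 18.4 TPM with JQ1, 8.05, 5.40 and 6.61 TPM with FIDAS-5 and 6.08, 6.33 and 6.06 TPM in vehicle cells (JQ1 against vehicle log2 change 1.75, adjusted p = 0.000130). MYC and MAT2A were not called against vehicle with either compound (adjusted p = 0.256 and 0.519 with JQ1, 0.0692 and 0.305 with FIDAS-5). All 8 hepatocyte and hepatoma markers were tested, with ALB at 826 to 4605 TPM over the 9 libraries; 6 rose and 1 fell with JQ1 and 3 rose with FIDAS-5, and the list summed to 9895 to 13599.9 TPM with JQ1, 5323 to 6936 TPM with FIDAS-5 and 4947 to 6259 TPM in vehicle libraries. Of 10 macrophage and other leukocyte markers 5 were under 1 TPM in every library, CD163 and TYROBP among them at 0. The list summed to 19.8 to 29.05 TPM with JQ1, 255 to 314 TPM with FIDAS-5 and 116 to 143 TPM in vehicle libraries. LYZ was the largest part of each sum, at means of 12.4 TPM with JQ1, 253 TPM with FIDAS-5 and 113 TPM with vehicle. Of the 5 tested, 3 fell with JQ1 (CD68, FCER1G and LYZ) and 3 rose with FIDAS-5 (CD68, LYZ and LCP1). The fibroblast, endothelial and cholangiocyte lists summed to 1.07 to 2.56 TPM, 1.35 to 16.6 TPM and 24.4 to 48.5 TPM over the libraries. The part of these markers in the results on lysosomal genes was not tested.

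With JQ1, genes of glycosidases, proteases, lipid handling and the lysosomal membrane were mostly higher than in vehicle cells, while the conjugation genes ATG5 and ATG7 and the transcription factors were not called higher. TP53INP2, an autophagy adaptor that binds LC3 proteins, changed most, followed by SMPD1, NPC2, PPT1, GRN, NEU1, ARSA and TPP1. PPT1 was lower and the others were higher. Of the 53 members tested 31 rose (58.5%, against 19.0% of all 13573 genes) and 6 fell (11.3%, against 19.4% of all genes). A gene is called here where limma's moderated test, two-sided and Benjamini-Hochberg adjusted over all tested genes, gave an adjusted p under 0.05. Of the 31 members that rose 20 did so by at least 2-fold on the log2(TPM + 1) scale, on which the change of genes at a few TPM is understated. Of all 13573 genes 934 were called higher by at least 2-fold. The median log2 change of the members tested was 0.78, beside -0.01 over all genes. The 6 that fell were TFEB, CTSC, CTSH, ARSB, PPT1 and GPNMB. Of all 54 members 32 had every JQ1 library above every vehicle library, 8 had every one below, and 14 overlapped. The matching shares over all genes were not counted, so these counts have no background to be read against. In bulk RNA fewer cells with a transcript and less of it per cell cannot be told apart.

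With FIDAS-5, 26 of the 53 members rose (49.1%, against 12.6% of all genes) and PPT1 alone fell (1.89%, against 7.60% of all genes). TP53INP2 again changed most, followed by CTSD, OPTN, SMPD1, MAN2B1, ARSA, GRN and GAA. The median log2 change was 0.55, beside -0.02 over all genes, and 12 of the 26 rose by at least 2-fold. Of all 13573 genes 539 were called higher by at least 2-fold. Every FIDAS-5 library lay above every vehicle library in 33 of the 54 members, every one below in 3, and 18 overlapped. Here too the shares over all genes were not counted, and the percentages above are for limma calls. The count of 26 was 15 without vehicle replicate 3 and 17 without FIDAS-5 replicate 1 or FIDAS-5 replicate 3. Among all genes 62.4% of the FIDAS-5 calls were higher, which quantile normalization moved to 52.0% and removal of the trend on GC content to 51.9%. Both comparisons use the same 3 vehicle libraries, so their values are set side by side below without a measure of likeness.

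The summed level of the 54 members was 3335, 3347 and 3009 TPM in the JQ1 libraries, 2995, 2423 and 2637 TPM in the FIDAS-5 libraries and 1940, 1685 and 1677 TPM in the vehicle libraries. The 3 groups did not overlap. As a share of the TPM of protein-coding genes the members held 0.986%, 1.01% and 1.09% with JQ1, 0.911%, 0.855% and 0.940% with FIDAS-5, and 0.642%, 0.527% and 0.546% with vehicle. The gene with the highest mean level was PSAP in JQ1 cells (314.8 TPM), CTSD in FIDAS-5 cells (309 TPM) and GABARAP in vehicle cells (307 TPM). The median member stood at 30.8 TPM with JQ1, 27.1 TPM with FIDAS-5 and 17.3 TPM with vehicle.

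**Figure D1:**
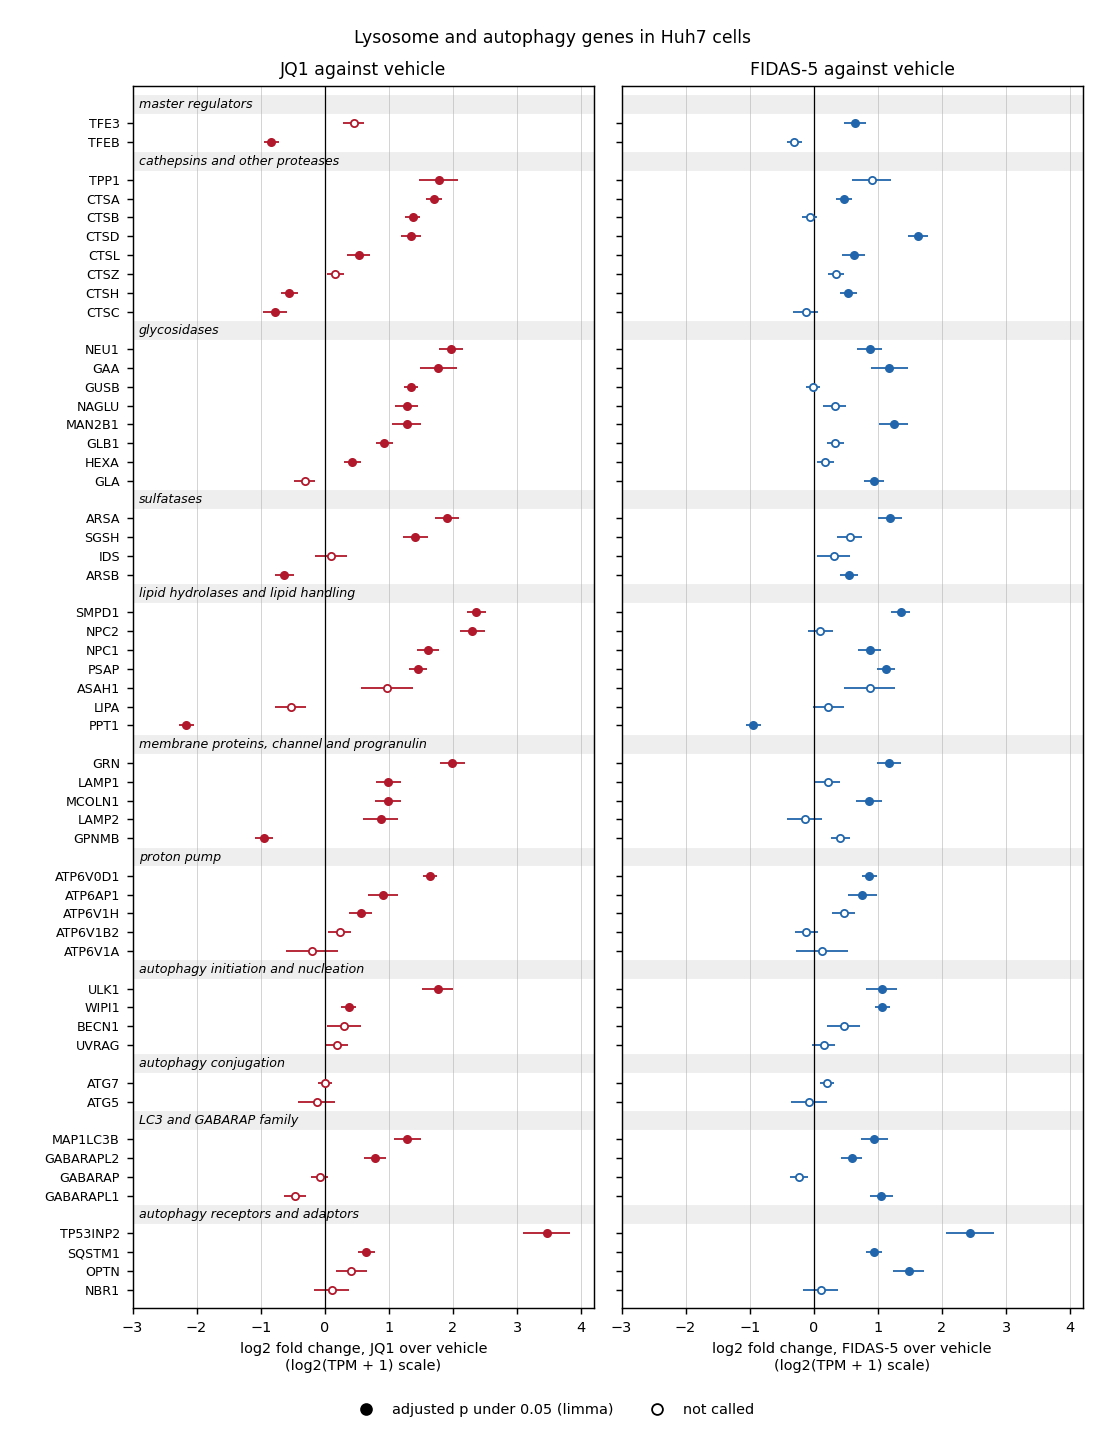
Log2 fold change (log2(TPM + 1) scale) of the 53 members tested, JQ1 over vehicle on the left and FIDAS-5 over vehicle on the right, with members grouped by role. Points are limma estimates, bars are ± 1 standard error, and filled points have an adjusted p under 0.05. TP53INP2 lies farthest to the right in both panels (3.46 and 2.44) and PPT1 farthest to the left (-2.16 and -0.94).

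None of the transcription factor genes was called higher with JQ1, and TFEB fell. TFEB had 0.334, 0.588 and 0.389 TPM in JQ1 libraries, 0.950, 1.15 and 1.12 TPM in FIDAS-5 libraries and 1.61, 1.62 and 1.44 TPM in vehicle libraries. The 3 groups did not overlap, with JQ1 lowest. Every JQ1 library lay under 1 TPM, and TFEB passed the filter at that level through vehicle and FIDAS-5 libraries. TFEB fell with JQ1 (log2 change -0.83, SE 0.12, adjusted p = 0.000769), was not called with FIDAS-5 (-0.30, adjusted p = 0.108), and was lower with JQ1 than with FIDAS-5 (-0.53, adjusted p = 0.00802). With the trend on GC content taken out TFEB was called lower with FIDAS-5 as well (-0.62, adjusted p = 0.0188), and so it was with no filter on low values (0.0425). TFE3, the more abundant of the factors per length, had 33.6, 35.2 and 33.5 TPM with JQ1, 42.2, 34.8 and 40.7 TPM with FIDAS-5 and 31.2, 20.2 and 23.9 TPM with vehicle. All treated libraries lay above the vehicle libraries. TFE3 rose with FIDAS-5 (0.64, SE 0.17, adjusted p = 0.0256), a call lost once the trend on GC content was taken out (adjusted p = 0.0929) and when FIDAS-5 replicate 1 or 3 or vehicle replicate 2 or 3 was left out (0.0668 to 0.0888). It missed the threshold with JQ1 (0.45, adjusted p = 0.0595), and was called without vehicle replicate 1 (adjusted p = 0.0122) and with quantile normalization (0.0496). MITF was near 0, at 0.0499, 0.0432 and 0.0365 TPM with JQ1, 0.0118, 0.0437 and 0 TPM with FIDAS-5 and 0.0133, 0 and 0 TPM with vehicle, and was not tested.

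Of the 8 cathepsins and other proteases, 5 rose and 2 fell with JQ1, and 4 rose with FIDAS-5. CTSD, the main aspartic protease of the lysosome, had 239, 263 and 259 TPM with JQ1, 334, 281 and 312 TPM with FIDAS-5 and 121, 80.8 and 99.6 TPM with vehicle. Both treated groups lay above all vehicle libraries, by 1.35 (adjusted p = 0.000309) with JQ1 and 1.63 (adjusted p = 0.000261) with FIDAS-5, and the difference between them was not called (-0.28, adjusted p = 0.209). CTSB, a cysteine protease, differed: it had 110.0, 108 and 108 TPM with JQ1, 41.2, 38.1 and 39.3 TPM with FIDAS-5 and 45.9, 41.3 and 37.5 TPM with vehicle. The JQ1 libraries stood apart from the other 6, which overlapped, and CTSB rose with JQ1 (1.37, adjusted p = 6.03e-05) and not with FIDAS-5 (-0.07, SE 0.12, adjusted p = 0.729). TPP1, a tripeptidyl peptidase, had 109.9, 107 and 75.6 TPM with JQ1, 65.7, 43.6 and 49.2 TPM with FIDAS-5 and 43.5, 18.7 and 25.03 TPM with vehicle. It rose with JQ1 (1.78, adjusted p = 0.00192) and was not called with FIDAS-5 (0.90, adjusted p = 0.0664). CTSA, the carboxypeptidase that protects GLB1 and NEU1 from degradation, rose with both compounds, by 1.71 with JQ1 and 0.47 with FIDAS-5 (adjusted p = 2.79e-05 and 0.0287); the second call was lost with the GC trend taken out (adjusted p = 0.155). CTSH, an aminopeptidase, fell with JQ1 to 12.1 ± 0.307 TPM and rose with FIDAS-5 to 26.97 ± 1.47 TPM, against 18.3 ± 2.53 TPM with vehicle (SD, n = 3 each; adjusted p = 0.00881 and 0.0175); its rise was no longer called with the GC trend taken out (0.42, adjusted p = 0.0629). CTSC, the peptidase that activates serine proteases of immune cells, fell with JQ1 (-0.78, adjusted p = 0.0113). CTSL, another cysteine protease, rose by 0.53 and 0.62 at adjusted p = 0.0476 and 0.0418, and lost both calls with a pseudocount of 0.1 (adjusted p = 0.0559 and 0.0513) and when any single library other than JQ1 replicate 3 and vehicle replicate 2 was left out (0.0543 to 0.158). CTSZ, a carboxypeptidase, was called with neither compound. Leaving out vehicle replicate 3 or FIDAS-5 replicate 1 ended the FIDAS-5 calls of CTSA (adjusted p = 0.0945 and 0.0879) and CTSH (0.0682 and 0.0581), JQ1 replicate 2, FIDAS-5 replicate 3 or vehicle replicate 2 also ended that of CTSA (0.0549 to 0.106), and TPP1 was called with FIDAS-5 without vehicle replicate 1 (0.0122).

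Glycosidases, which remove sugars from glycans, rose with JQ1 in 7 of 8 genes and with FIDAS-5 in 4 of 8, and none fell. NEU1, the lysosomal sialidase (chr6:31857659-31862821), had 127, 135 and 132 TPM with JQ1, 73.7, 48.3 and 63.1 TPM with FIDAS-5 and 41.3, 27.5 and 30.9 TPM with vehicle. The 3 groups did not overlap: NEU1 rose with JQ1 (1.97, SE 0.19, adjusted p = 0.000115) and FIDAS-5 (0.87, adjusted p = 0.0133). GAA, the acid glucosidase that breaks down glycogen (chr17:80101581-80119881), had 31.4, 33.5 and 35.6 TPM with JQ1, 23.01, 19.01 and 23.8 TPM with FIDAS-5 and 14.02, 5.04 and 10.4 TPM with vehicle. Its vehicle libraries varied most, and both treated groups lay above all of them (1.77 and 1.18, adjusted p = 0.00161 and 0.0210). MAN2B1, a mannosidase, had 29.4, 30.99 and 31.7 TPM with JQ1, 34.4, 25.8 and 30.5 TPM with FIDAS-5 and 17.4, 8.35 and 11.98 TPM with vehicle. The treated libraries all lay above vehicle and overlapped each other, with changes of 1.28 with JQ1 and 1.25 with FIDAS-5 (adjusted p = 0.00260 and 0.00563). GUSB, the beta-glucuronidase, was high with JQ1, with 19.8, 21.7 and 20.2 TPM with JQ1, 7.83, 7.18 and 7.25 TPM with FIDAS-5 and 7.62, 7.36 and 7.44 TPM with vehicle. Only the JQ1 libraries stood apart (1.35, adjusted p = 4.08e-05; FIDAS-5 -0.01, adjusted p = 0.960), and reads of GUSB may be shared with its pseudogene copies, of which GUSBP1 stood at 6.30 to 11.6 TPM over the libraries. GLA, the galactosidase missing in Fabry disease, was highest with FIDAS-5, with 34.4, 34.3 and 30.7 TPM with JQ1, 88.4, 63.7 and 91.7 TPM with FIDAS-5 and 37.05, 44.03 and 43.3 TPM with vehicle. FIDAS-5 libraries were all above the rest (0.94, adjusted p = 0.00407) and JQ1 libraries all below vehicle without a call (-0.31, adjusted p = 0.160). NAGLU, GLB1 and HEXA, which act on heparan sulfate, galactosides and gangliosides, rose with JQ1 (1.28, 0.93 and 0.43) and were not called with FIDAS-5 (0.33, 0.33 and 0.18). NAGLU and GLB1 were higher with JQ1 than with FIDAS-5 (0.95 and 0.59, adjusted p = 0.00358 and 0.00749). The FIDAS-5 calls of NEU1 and GAA were lost without vehicle replicate 3 (adjusted p = 0.0555 and 0.0506) or FIDAS-5 replicate 3 (0.0502 and 0.0721), that of GAA also without FIDAS-5 replicate 1 (0.062), and the JQ1 call of HEXA without JQ1 replicate 1 or 2 or vehicle replicate 1 or 3 (0.0509 to 0.107).

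Of the 4 sulfatases 2 rose and 1 fell with JQ1, and 2 rose with FIDAS-5. ARSA, which acts on sulfatides, had 12.3, 13.1 and 13.4 TPM with JQ1, 7.74, 6.37 and 8.48 TPM with FIDAS-5 and 3.59, 1.81 and 2.96 TPM with vehicle. Its groups did not overlap, with changes of 1.91 (SE 0.19, adjusted p = 0.000120) with JQ1 and 1.19 (adjusted p = 0.00273) with FIDAS-5. ARSB, which acts on dermatan and chondroitin sulfate, fell with JQ1 to 6.82 ± 0.725 TPM and rose with FIDAS-5 to 16.8 ± 2.72 TPM, against 11.1 ± 0.423 TPM with vehicle (SD, n = 3 each; adjusted p = 0.00872 and 0.0279). SGSH, a heparan sulfate sulfatase, rose with JQ1 (1.41, adjusted p = 0.000691) and was not called with FIDAS-5 (0.56, adjusted p = 0.0770). IDS, the iduronate sulfatase, was called with neither. The FIDAS-5 call of ARSB was lost without JQ1 replicate 2, FIDAS-5 replicate 1 or 3 or vehicle replicate 2 or 3 (adjusted p = 0.0518 to 0.104), and SGSH was called with FIDAS-5 without vehicle replicate 1 (0.0152).

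Of the 7 genes for lipid breakdown and export 4 rose and PPT1 fell with JQ1, and 3 rose and PPT1 fell with FIDAS-5. SMPD1, the acid sphingomyelinase (chr11:6390474-6394996), had 32.5, 35.03 and 35.97 TPM with JQ1, 17.6, 14.4 and 18.02 TPM with FIDAS-5 and 7.16, 5.52 and 5.16 TPM with vehicle. The 3 groups were separate, with mean levels 5.80 times the vehicle mean with JQ1 and 2.81 times with FIDAS-5 (log2 change 2.36 and 1.35, adjusted p = 1.55e-05 and 0.000432). NPC2, which hands cholesterol to NPC1 inside the lysosome (chr14:74479935-74493512), had 129, 129 and 113 TPM with JQ1, 26.1, 24.7 and 27.9 TPM with FIDAS-5 and 17.6, 31.4 and 26.01 TPM with vehicle. JQ1 libraries lay far above the other 6, which overlapped: NPC2 rose with JQ1 (2.30, SE 0.20, adjusted p = 6.13e-05) and not with FIDAS-5 (0.10, SE 0.20, adjusted p = 0.758). NPC1, its partner in the lysosomal membrane, rose with both (1.61 and 0.87, adjusted p = 0.000188 and 0.00827). PPT1, which removes palmitate from proteins (chr1:40071461-40097252), had 9.71, 8.87 and 8.45 TPM with JQ1, 22.9, 21.7 and 22.1 TPM with FIDAS-5 and 40.2, 48.2 and 43.01 TPM with vehicle. Its groups were ordered the opposite way, without overlap, and PPT1 fell with JQ1 (-2.16, SE 0.12, adjusted p = 1.12e-05), fell with FIDAS-5 (-0.94, adjusted p = 0.000887) and was lower with JQ1 than with FIDAS-5 (-1.22, adjusted p = 8.83e-05). PSAP, the precursor of the saposins that help lipid hydrolases, rose to 315 ± 11.3 TPM with JQ1 and 251 ± 29.9 TPM with FIDAS-5, against 115 ± 13.6 TPM with vehicle (SD, n = 3 each; adjusted p = 0.000105 and 0.000854). ASAH1, the acid ceramidase, had 89.2, 74.1 and 31.1 TPM with JQ1, 82.5, 57.00 and 35.4 TPM with FIDAS-5 and 31.4, 28.2 and 29.4 TPM with vehicle. The third library of each treated group was the lowest of its group, and ASAH1 was called with neither compound (adjusted p = 0.0857 and 0.165). Both calls were made without JQ1 replicate 3 (adjusted p = 0.00677 and 0.0465) and without that library and FIDAS-5 replicate 3 together (0.00120 and 0.00561). LIPA, the acid lipase, was not called against vehicle and was lower with JQ1 than with FIDAS-5 (-0.76, adjusted p = 0.0380); that call was lost without JQ1 replicate 3, FIDAS-5 replicate 1 or 2 or vehicle replicate 3 (adjusted p = 0.0602 to 0.118).

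**Figure D2:**
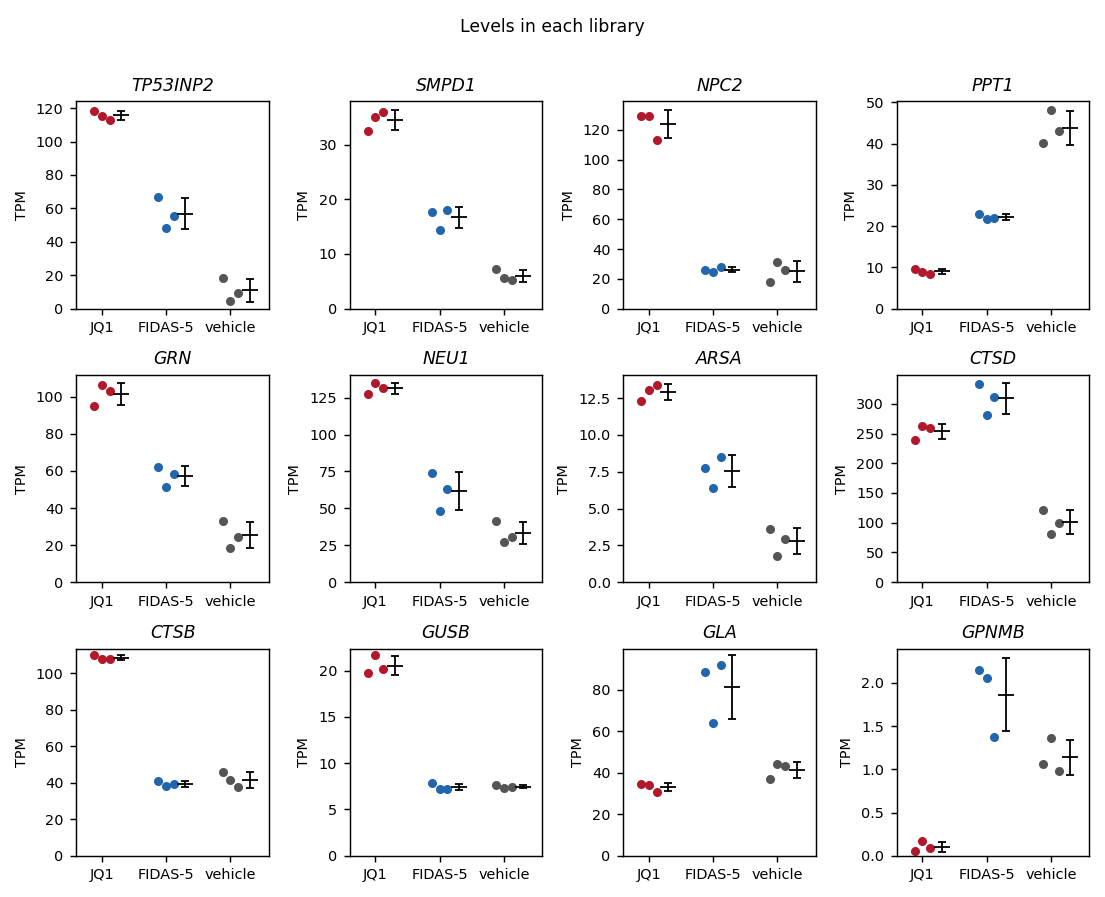
TPM in each library (points) with the mean ± SD (bars, n = 3) for 12 members, with JQ1, FIDAS-5 and vehicle from left to right in each panel and every axis starting at 0. SMPD1, NEU1, ARSA, GRN and TP53INP2 fall in the order JQ1, FIDAS-5, vehicle, PPT1 in the opposite order, and NPC2, CTSB and GUSB are high in JQ1 libraries alone.

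Of the 5 genes of lysosomal membrane proteins and progranulin, 4 rose and 1 fell with JQ1, and 2 rose with FIDAS-5. GRN, which encodes progranulin, a secreted and lysosomal precursor of granulins (chr17:44345302-44353106), had 95.1, 106 and 103 TPM with JQ1, 61.97, 51.6 and 58.4 TPM with FIDAS-5 and 32.98, 18.7 and 24.5 TPM with vehicle. The 3 groups did not overlap, and GRN rose by 1.99 (adjusted p = 0.000107) with JQ1 and 1.18 (adjusted p = 0.00326) with FIDAS-5. LAMP1 and LAMP2, the main glycoproteins of the lysosomal membrane, rose with JQ1 (0.99 and 0.87, adjusted p = 0.00390 and 0.0333) and were not called with FIDAS-5 (0.21 and -0.14). LAMP2 stood at 111, 100.5 and 54.8 TPM in the JQ1 libraries, and its call was lost without JQ1 replicate 1 or 2, FIDAS-5 replicate 2 or any single vehicle library (adjusted p = 0.0527 to 0.109). MCOLN1, a calcium channel of the lysosome, rose to 7.86 ± 0.0930 TPM with JQ1 and 7.26 ± 1.60 TPM with FIDAS-5, against 3.57 ± 1.19 TPM with vehicle (SD, n = 3 each). Its call with JQ1 had an adjusted p of 0.00547; that with FIDAS-5 (0.0182) was lost after removal of the GC trend (0.0563) and when FIDAS-5 replicate 1 or 3 or vehicle replicate 2 or 3 was left out (0.0584 to 0.0714). GPNMB, a glycoprotein of lysosomes and melanosomes, was low throughout, with 0.0601, 0.169 and 0.0867 TPM with JQ1, 2.15, 2.06 and 1.38 TPM with FIDAS-5 and 1.06, 1.36 and 0.985 TPM with vehicle. It passed the filter at 1 TPM through its FIDAS-5 libraries, while every JQ1 library lay under 1 TPM. FIDAS-5 libraries were highest and JQ1 libraries lowest without overlap; GPNMB fell with JQ1 (-0.95, adjusted p = 0.00112) and was not called with FIDAS-5 (0.42, adjusted p = 0.0763; 0.0476 without FIDAS-5 replicate 3).

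Of the 5 proton pump genes, which encode the rotary ATPase that acidifies the lumen, 3 rose with JQ1 and 2 with FIDAS-5. ATP6V0D1, a subunit of the membrane sector, rose to 49.97 ± 1.69 TPM with JQ1 and 28.9 ± 1.80 TPM with FIDAS-5, against 15.4 ± 0.924 TPM with vehicle (SD, n = 3 each; adjusted p = 2.24e-05 and 0.00101). ATP6AP1, an accessory subunit, rose by 0.91 with JQ1 and 0.76 with FIDAS-5 (adjusted p = 0.0133 and 0.0482; the second was 0.0978 with the GC trend removed, and 0.0663 to 0.129 when any single library other than JQ1 replicate 3 and vehicle replicate 1 was left out). ATP6V1H, a regulatory subunit, rose with JQ1 (0.56, adjusted p = 0.0379), a call lost without JQ1 replicate 1 or 2, FIDAS-5 replicate 1 or any single vehicle library (0.0514 to 0.120). The catalytic sector subunits ATP6V1A and ATP6V1B2 were called in neither comparison, and ATP6V1A had 35.4, 30.2 and 12.1 TPM with JQ1, 42.8, 29.1 and 21.1 TPM with FIDAS-5 and 20.2, 34.2 and 28.98 TPM with vehicle, so that the 3 groups overlapped.

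Among the genes that start autophagosomes, 2 of 4 rose with JQ1 and 2 of 4 with FIDAS-5. ULK1, the kinase that starts autophagy, rose to 13.7 ± 0.538 TPM with JQ1 and 8.05 ± 0.769 TPM with FIDAS-5, against 3.53 ± 1.58 TPM with vehicle (SD, n = 3 each; adjusted p = 0.000591 and 0.0139; the second was 0.0539 without FIDAS-5 replicate 3). WIPI1, which binds the lipid that marks new autophagosomes, rose more with FIDAS-5 (1.07, adjusted p = 0.000432) than with JQ1 (0.37, adjusted p = 0.0329), and the difference was called (-0.70, adjusted p = 0.00193). The JQ1 call of WIPI1 was lost without any single JQ1 library, FIDAS-5 replicate 3 or vehicle replicate 2 or 3 (adjusted p = 0.0531 to 0.124). BECN1 and UVRAG, of the lipid kinase complex, were not called. Nor were ATG5 and ATG7, which attach LC3 to membranes: ATG7 stood at 12.8 ± 0.604 TPM with JQ1, 14.9 ± 0.640 TPM with FIDAS-5 and 12.8 ± 1.03 TPM with vehicle (SD, n = 3 each).

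The LC3 and GABARAP genes, whose products coat autophagosomes and bind cargo receptors, differed in their changes, with MAP1LC3B and GABARAPL2 higher with both compounds, GABARAPL1 higher with FIDAS-5 and GABARAP not called. MAP1LC3B had 127, 114 and 79.1 TPM with JQ1, 102, 71.6 and 75.96 TPM with FIDAS-5 and 47.4, 41.98 and 38.1 TPM with vehicle. Treated libraries were all above vehicle, and the gene rose with JQ1 (1.29, adjusted p = 0.00155) and FIDAS-5 (0.94, adjusted p = 0.0135); its near-identical copy MAP1LC3B2 was listed at no more than 0.538 TPM and GABARAPL3, a copy of GABARAPL1, at no more than 0.0317 TPM. GABARAPL2 had 81.6, 82.01 and 65.8 TPM with JQ1, 71.8, 64.2 and 63.6 TPM with FIDAS-5 and 54.8, 38.01 and 40.4 TPM with vehicle. It rose with both, by 0.78 and 0.59 (adjusted p = 0.00595 and 0.0365). The FIDAS-5 call of MAP1LC3B was lost without vehicle replicate 3 (0.0586), and that of GABARAPL2 when any single library other than JQ1 replicate 3 and vehicle replicate 1 was left out (0.0513 to 0.127). GABARAP, the most abundant of the family per length, had 282, 289 and 296 TPM with JQ1, 278, 252 and 251 TPM with FIDAS-5 and 361, 279 and 282 TPM with vehicle. JQ1 and vehicle libraries overlapped, and it was not called with either compound (-0.08, SE 0.13; -0.23, SE 0.13). GABARAPL1 had 11.5, 10.3 and 7.87 TPM with JQ1, 33.8, 27.4 and 29.3 TPM with FIDAS-5 and 14.4, 15.98 and 11.7 TPM with vehicle. FIDAS-5 libraries were all above the other 6. GABARAPL1 rose with FIDAS-5 (1.06, adjusted p = 0.00335), missed the threshold with JQ1 on the lower side (-0.47, adjusted p = 0.0604; 0.0475 without JQ1 replicate 1), and differed between the compounds (-1.53, SE 0.17, adjusted p = 0.000213).

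Of the 4 receptors and adaptors 2 rose with JQ1 and 3 with FIDAS-5. TP53INP2 (chr20:34704344-34713436) had 118, 115 and 113 TPM with JQ1, 66.8, 48.3 and 55.3 TPM with FIDAS-5 and 18.6, 4.68 and 9.66 TPM with vehicle. The 3 groups did not overlap, and the vehicle libraries differed among themselves more than the JQ1 libraries did. Mean levels were 10.5 times the vehicle mean with JQ1 (log2 change 3.46, SE 0.37, adjusted p = 0.000186) and 5.18 times with FIDAS-5 (2.44, SE 0.37, adjusted p = 0.00237). Its promoter held neither the E-box nor the M-box. SQSTM1, the receptor that carries ubiquitinated cargo, rose to 213 ± 5.16 TPM with JQ1 and 261 ± 26.6 TPM with FIDAS-5, against 136 ± 13.3 TPM with vehicle (SD, n = 3 each; adjusted p = 0.00417 and 0.00140). The JQ1 call of SQSTM1 was lost with the GC trend taken out (adjusted p = 0.0545). OPTN, a receptor for mitochondria and bacteria, had 6.92, 7.51 and 3.94 TPM with JQ1, 17.8, 11.5 and 12.03 TPM with FIDAS-5 and 3.60, 4.79 and 4.29 TPM with vehicle. FIDAS-5 libraries stood above all others, and OPTN rose with FIDAS-5 (1.48, SE 0.24, adjusted p = 0.00314) and not with JQ1 (0.41, adjusted p = 0.207; 0.0322 without JQ1 replicate 3). NBR1, a relative of SQSTM1, was called with neither.

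**Figure D3:**
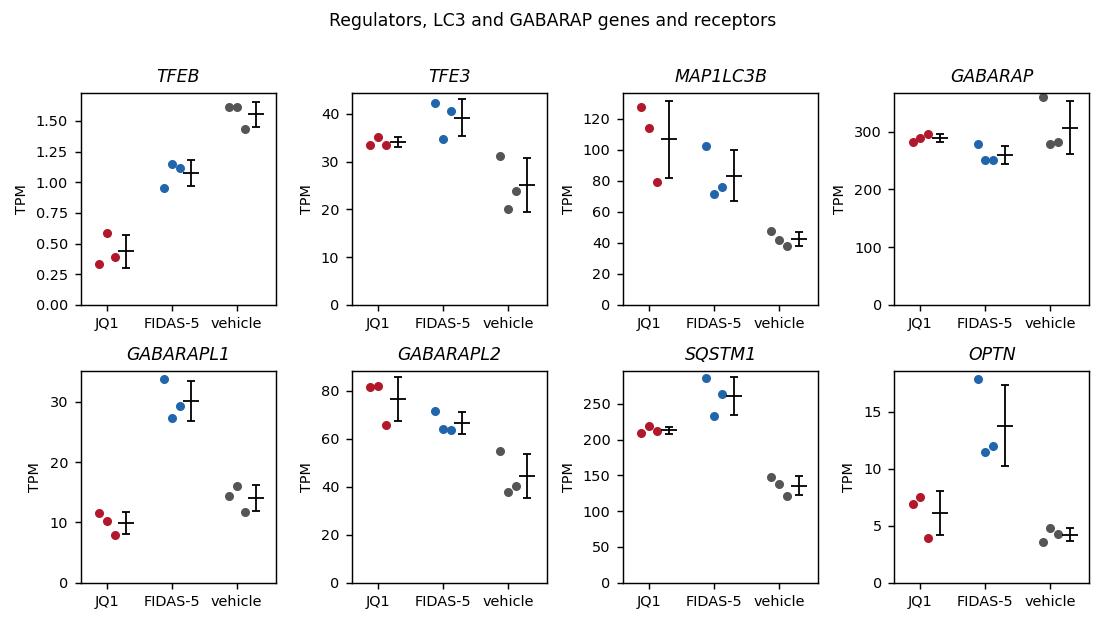
TPM in each library (points) with the mean ± SD (bars, n = 3) for 2 transcription factors, the 4 LC3 and GABARAP genes and 2 cargo receptors, with JQ1, FIDAS-5 and vehicle from left to right and every axis starting at 0. TFEB is lowest in JQ1 libraries, GABARAPL1 and OPTN are highest in FIDAS-5 libraries, and MAP1LC3B is higher in both treated groups than in vehicle.

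Set directly against each other, JQ1 and FIDAS-5 differed most in NPC2, GABARAPL1, CTSB, GPNMB, GUSB and GLA. With JQ1 16 of the 53 members were higher than with FIDAS-5 (30.2%, against 16.4% of all genes). The 11 that were lower made up 20.8%, near the 18.5% of all genes. The median difference was 0.12, beside 0.05 over all genes. The differences were NPC2 (2.20, adjusted p = 5.20e-05), GABARAPL1 (-1.53, adjusted p = 0.000213), CTSB (1.44, adjusted p = 3.13e-05), GPNMB (-1.36, adjusted p = 0.000141), GUSB (1.36, adjusted p = 2.53e-05) and GLA (-1.25, adjusted p = 0.000450). GPNMB passed the filter at 1 TPM through its FIDAS-5 libraries, its high group, so its place in this ranking is only a description. CTSH and ARSB were lower with JQ1 than with FIDAS-5 by this test (-1.09 and -1.18, adjusted p = 0.000248 and 0.000337). The differences in TP53INP2 (1.02, adjusted p = 0.0607) and TPP1 (0.87, adjusted p = 0.0508) missed the threshold and were called with the replicate number as a block (adjusted p = 0.0315 and 0.0181). Without vehicle replicate 1 or 2 both were also called (TP53INP2 0.0121 and 0.0108, TPP1 0.0174 and 0.0332), and TPP1 without FIDAS-5 replicate 1 (0.0473) or JQ1 replicate 3 (0.0311). GAA was called without vehicle replicate 2 (0.0169) and MAP1LC3B without JQ1 replicate 3 (0.0453). Calls that ended without 1 library were those of CTSC (adjusted p = 0.0544 to 0.0789 without JQ1 replicate 2 or any FIDAS-5 library), ARSA (0.0670 without FIDAS-5 replicate 2 and 0.0555 without JQ1 replicate 2), LAMP1 (0.0541 without FIDAS-5 replicate 2), LAMP2 (0.0651 to 0.0728 without FIDAS-5 replicate 2 or 3 or JQ1 replicate 1 or 2), LIPA and ULK1 (0.0626 to 0.133 when any single library other than vehicle replicates 1 and 2 was left out). Each compound was used at 1 dose and 1 time, so the comparison is between these treatments and not between equal doses.

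**Figure D4:**
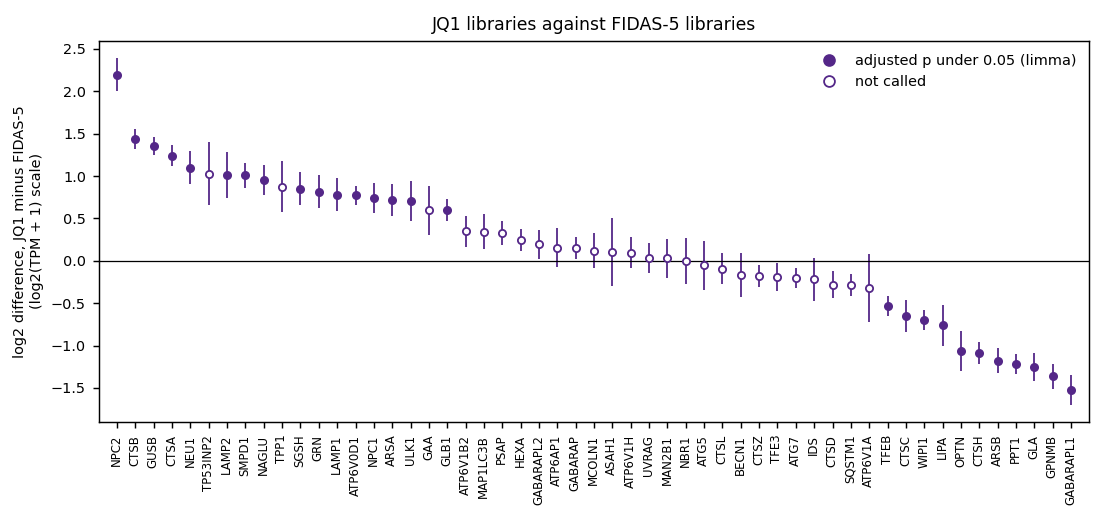
Log2 difference between JQ1 and FIDAS-5 libraries (JQ1 minus FIDAS-5, log2(TPM + 1) scale) for the 53 members tested, sorted by size. Points are limma estimates, bars are ± 1 standard error and filled points have an adjusted p under 0.05; the values run from 2.20 for NPC2 to -1.53 for GABARAPL1.

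The 6 members whose promoters held GTCACGTG rose with JQ1 in every case, with a median log2 change of 1.49 and a range of 0.99 to 1.77. Among the 35 other tested members with a promoter in the table, 17 rose and 6 fell, with a median of 0.41. With FIDAS-5 the 6 had a median of 0.87 and 5 were called, all higher, LAMP1 being the exception, while of the 35 others 19 rose and 1 fell, with a median of 0.59. Between the compounds 3 of the 6 were higher with JQ1 and none lower, against 16.4% and 18.5% of all genes. Over all 13573 genes 19.0% rose and 19.4% fell with JQ1, and 12.6% rose and 7.60% fell with FIDAS-5. The 5 members with the M-box were mixed: with JQ1 3 rose while PPT1 and GPNMB fell (median 1.71, against 0.59 over the 36 other tested members with a promoter), and with FIDAS-5 2 rose and PPT1 fell (median 0.47, against 0.63). All 6 members with GTCACGTG had transcripts of 55.2% (LAMP1) to 66.1% (GAA) GC, above the median of 51.8% over the tested members. Across these members the change also rose with GC content (Spearman 0.55 with JQ1 and 0.44 with FIDAS-5). The part of GC content in the contrast by motif was not tested, and non-member genes with the motif were not counted. No test was made of these counts, and the 6 promoters do not cover other elements or more distant sequence.

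The wider pathway was read from 153 further genes in 7 lists, of which 145 were tested. These lists, like the members, were chosen with earlier results of these data known, so their shares are no independent check. With JQ1 54 rose (37.2%, against 19.0% of all genes) and 12 fell (8.28%, against 19.4%), with a median log2 change of 0.30. With FIDAS-5 35 rose (24.1%, against 12.6% of all genes) and 1 fell (0.690%, against 7.60%), with a median of 0.18. Between the compounds 38 were higher with JQ1 (26.2%, against 16.4%) and 23 lower (15.9%, against 18.5%), with a median difference of 0.09, and the 23 were 15 without FIDAS-5 replicate 1. The counts that fell were 6 without vehicle replicate 2 for JQ1 and between 0 and 3 without 1 library for FIDAS-5, and the FIDAS-5 count that rose was 23 without vehicle replicate 3. Of 25 other hydrolases and activators 15 rose and 1 fell with JQ1 and 9 rose and 1 fell with FIDAS-5. FUCA1, a fucosidase, rose with JQ1 and was not called with FIDAS-5, at 20.7 ± 2.58 TPM with JQ1, 4.12 ± 0.708 TPM with FIDAS-5 and 4.03 ± 0.260 TPM with vehicle (SD, n = 3 each), and LGMN, an asparaginyl protease, rose with both (1.45 and 0.81). IDUA, the iduronidase, was called higher with both, at 2.75 ± 0.341 TPM with JQ1, 0.735 ± 0.0840 TPM with FIDAS-5 and 0.182 ± 0.0274 TPM with vehicle. It passed the filter at 1 TPM through its JQ1 libraries alone, so its calls depend on that filter. Its FIDAS-5 and vehicle levels both lay under 1 TPM.

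Of 20 other membrane proteins 6 rose and 2 fell with JQ1, and 6 rose with FIDAS-5, so that 30.00% rose with either, against 19.0% and 12.6% of all genes. LAPTM4B, a lysosomal transmembrane protein, differed most between the compounds among the 145 further genes tested, at 83.05 ± 15.3 TPM with JQ1, 458 ± 62.2 TPM with FIDAS-5 and 259 ± 40.4 TPM with vehicle (difference -2.46, adjusted p = 2.12e-05). TMEM175, a potassium and proton channel of the lysosome, rose with both (1.73 and 0.89), and the tetraspanin CD63 rose with FIDAS-5 (0.84, adjusted p = 0.00213) and was not called with JQ1 (0.01). Of 13 other proton pump subunits 6 rose with JQ1 (46.2%) and 4 with FIDAS-5 (30.8%), among them ATP6V0E2 (1.58) with JQ1 and ATP6V0B (0.79) and TCIRG1 (1.45) with FIDAS-5. Of 22 genes of enzyme sorting and lysosome fusion 9 rose (40.9%) and 3 fell (13.6%) with JQ1 and 6 rose with FIDAS-5 (27.3%). GNPTG, part of the enzyme that tags hydrolases for the lysosome, rose with both (1.66 and 0.75), as did the tethering subunit VPS39 (1.27 and 0.49) and the adaptor PLEKHM1 (1.05 and 1.14).

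Of 27 other core autophagy genes 8 rose (29.6%, against 19.0% of all genes) and 2 fell with JQ1, and 6 rose with FIDAS-5 (22.2%, against 12.6%). The LC3 protease gene ATG4B rose with both (1.17 and 0.54), and WDR45, a relative of WIPI1, fell with JQ1 (-0.57) and rose with FIDAS-5 (1.13; difference -1.71, adjusted p = 5.41e-05). Of 12 other receptors and LC3 genes 1 rose (TOLLIP, 1.21) and 4 fell with JQ1, PHB2 (-0.76) and FKBP8 (-0.68) among them, and 2 rose with FIDAS-5 (TOLLIP, 0.74, and STBD1, a glycogen-binding adaptor, 0.94). The shares that rose were 8.33% with JQ1, under that of all genes, and 16.7% with FIDAS-5, and the share that fell with JQ1 was 33.3%, against 19.4% of all genes. Of 26 genes of mTORC1 and its amino acid sensors 9 rose with JQ1 (34.6%) and none fell, while the 2 that rose with FIDAS-5 (7.69%) were a smaller share than the 12.6% of all genes. FLCN and RRAGC, parts of the switch by which mTORC1 acts on TFE3 and TFEB, rose with JQ1 (1.18 and 1.68, adjusted p = 7.82e-05 and 0.00150) and were not called with FIDAS-5 (0.32 and 0.18). SESN2, a leucine sensor that restrains mTORC1, rose with both (1.05 and 1.17). BMT2 had 5.39, 4.45 and 2.54 TPM with JQ1, 2.43, 2.25 and 1.30 TPM with FIDAS-5 and 2.43, 2.62 and 3.01 TPM with vehicle. It was called against vehicle with neither compound (adjusted p = 0.180 and 0.382), while JQ1 was above FIDAS-5 (0.76, adjusted p = 0.0356).

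Libraries of 1 group differed along the GC content of the transcripts, and so did the members' changes. Across the 53 members the departure of JQ1 replicate 3 from its group mean rose with transcript GC content (Spearman 0.79), as did that of FIDAS-5 replicate 3 (0.50) and vehicle replicate 1 (0.65), while JQ1 replicate 1 (-0.78), JQ1 replicate 2 (-0.50), FIDAS-5 replicates 1 and 2 (-0.30 and -0.36) and vehicle replicate 2 (-0.59) went the other way. JQ1 replicate 3 was the lowest JQ1 library in 33 of the 54 members, ASAH1, ATP6V1A and LAMP2 among them, and FIDAS-5 replicate 2 the lowest FIDAS-5 library in 39. The log2 change against vehicle also rose with GC content across the members, with a Spearman correlation of 0.55 with JQ1 and 0.44 with FIDAS-5, beside 0.22 and 0.37 across 12925 genes. These points share the same libraries, and the part of GC content in the changes was not tested. After a trend on GC content fitted across all genes was removed from each library, 31 members rose and 7 fell with JQ1 and 24 rose and 2 fell with FIDAS-5. The JQ1 call of SQSTM1 and the FIDAS-5 calls of TFE3, CTSA, CTSH, MCOLN1 and ATP6AP1 were then lost. New calls were ASAH1 with both compounds (adjusted p = 0.0151 and 0.0342), GABARAPL1 lower with JQ1 (0.0320), and TFEB, lower, GPNMB (0.0196) and ATP6V1H (0.0304) with FIDAS-5. TPP1 (0.0388), GAA (0.0304) and TP53INP2 (0.0225) were then called higher with JQ1 than with FIDAS-5.

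**Figure D5:**
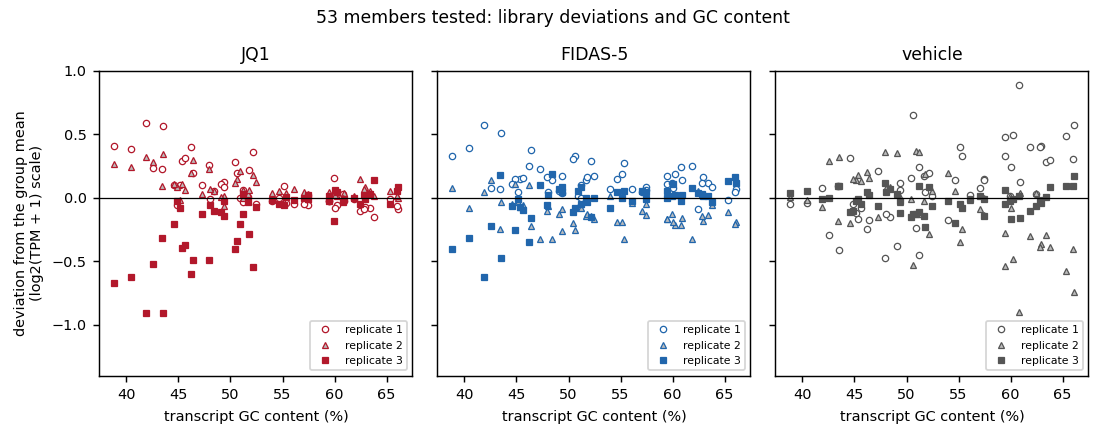
Deviation of each library from its group mean (log2(TPM + 1) scale) against transcript GC content (%) for the 53 members tested, with JQ1, FIDAS-5 and vehicle from left to right and 1 symbol per replicate. JQ1 replicate 3 slopes upward (Spearman 0.79) and JQ1 replicate 1 downward (-0.78).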

How the data were processed

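Total RNA of 9 Huh7 libraries was extracted with column kits and made into libraries by a commercial company, per the labels' protocols. The authors deposited 1 table of TPM per gene symbol made with Salmon on hg38, per the submitters' processing notes; the Salmon version and the annotation are not given in the sources used here. The members and lists were chosen with earlier results of these data known. Values were taken as log2(TPM + 1), symbols that reached 1 TPM in 3 or more libraries were kept, and limma 3.58.1 (R 4.3.3) fitted 1 mean for each group over the 9 libraries (6 residual and 2.86 prior degrees of freedom), with p-values adjusted over 13573 genes. Members named with values in every library are the regulators, the LC3 and GABARAP genes, the 8 largest called changes per compound and the 6 largest differences between compounds; further genes are the 3 with the smallest adjusted p per list, and 1 gene counted there is not reported here by name. Deviations from group means of same-numbered JQ1 and FIDAS-5 libraries correlated across genes at 0.26, 0.10 and 0.42. Those of differently numbered JQ1 and FIDAS-5 libraries correlated at -0.35 to 0.18, and those of vehicle and same-numbered treated libraries at -0.08 to 0.16. These values do not settle whether the numbers mark pairs. The fit reported here used no pairing, and the replicate number entered as a block only in an alternative setting. Coordinates and promoters are from RefSeq GRCh38.p14 and transcript GC content from GENCODE. The fit was run on simulated data with independent noise for each gene and library. That simulation lacks the deviations along GC content seen here, so it does not give the error rate of these calls. Figures used Python 3.11.15 and matplotlib 3.10.9.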

Additional observations from a re-analysis of the deposited data

How the results depend on the processing

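Of the members called, 25 of 31 higher and 6 of 6 lower with JQ1, 14 of 26 higher and 1 of 1 lower with FIDAS-5, and 12 of 16 higher and 9 of 11 lower between the compounds kept their call in every one of the 21 alternative settings in which they were tested, 9 of which leave out 1 library; no called member changed direction. TFEB, GPNMB, ATP6V1H and UVRAG were tested in 20, since a filter at 5 TPM left them out, and 4 members were then lower with JQ1 in place of 6. Another scaling ended the JQ1 call of WIPI1 (adjusted p = 0.0724 with median-of-ratios scaling and 0.0553 with quantile normalization), the FIDAS-5 call of CTSA (0.0538 and 0.0561) and the difference between the compounds in ULK1 (0.0524 with median-of-ratios scaling). Calls also arose under each of median-of-ratios scaling, quantile normalization and protein-coding genes rescaled. LIPA and GABARAPL1 were then lower and ASAH1 higher with JQ1 (adjusted p = 0.0111 to 0.0455). TPP1 and ATP6V1H were higher with FIDAS-5 (0.0156 to 0.0467), and TPP1 and TP53INP2 higher with JQ1 than with FIDAS-5 (0.0136 to 0.0476). Further members, CTSZ with FIDAS-5 among them, were called under only some of these scalings. Fitting only the 6 libraries compared ended the JQ1 calls of CTSL, ATP6V1H and WIPI1, the FIDAS-5 calls of TFE3, CTSA, CTSL, ATP6AP1 and GABARAPL2, and the differences in LIPA and LAMP2. For FIDAS-5 the members called lower were 2 in place of 1 with no filter, with the GC trend removed, and with the replicate block and the GC trend removed together. The other pathway genes called lower with FIDAS-5, 1 as reported, were 0 with only the 6 libraries compared or without JQ1 replicate 3 and FIDAS-5 replicate 3, 2 with median-of-ratios scaling, a pseudocount of 0.1, protein-coding genes rescaled, a trend in the moderation or the replicate block, 4 with no filter or quantile normalization, 5 with the GC trend removed, and 7 with the replicate block and the GC trend removed. Those called lower with JQ1 were 19 in place of 12 with protein-coding genes rescaled, and those lower with JQ1 than with FIDAS-5 were 15 in place of 23 without JQ1 replicate 3 and FIDAS-5 replicate 3. Leaving out 1 library gave 15 to 27 members and 23 to 42 other genes higher with FIDAS-5, 0 to 3 other genes lower with FIDAS-5, 6 to 12 lower with JQ1, and 15 to 22 lower with JQ1 than with FIDAS-5. With the replicate number as a block, 32 members rose and 7 fell with JQ1, 27 rose and 1 fell with FIDAS-5, and 18 were higher and 11 lower between compounds; ASAH1 and GABARAPL1 were then called with JQ1 (adjusted p = 0.0247 and 0.0394) and TPP1 with FIDAS-5 (0.0262). The median difference between the compounds over the members was 0.28 in place of 0.12 without JQ1 replicate 3. The cause of these shifts was not tested. TPM gives no depth, so neither counting error nor a detection limit can be given, and 3 libraries per group limit the precision.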
